A study of Selaginella kraussiana with 4 samples.

Results

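Neighbouring loci are loci that lie side by side on 1 contig of the draft genome of Selaginella kraussiana, a lycophyte. They were found by merging the loci of 4 RNA-seq libraries that shared 1 bp or more of a contig, keeping merged loci of at least 300 bp, and taking the contigs that hold 2 or more of them. This gave 6841 loci on 2986 contigs, out of 31210 merged loci of any length and 26055 of at least 300 bp. The libraries carry the labels leaf, rhizophore, seedling and stem. Each is a single library of total RNA from plants grown in a greenhouse or plant chamber, with no genotype, treatment or age in the labels. The study's text names the tissues microphyll (the small leaf of a lycophyte), rhizophore tip (the rhizophore is the axis that bears the roots), shoot tip and stem. Its list of sequenced libraries uses names like those of the labels, seedling included, and does not say which tissue is the seedling library. By elimination this would be the shoot tip, but it is not stated, so the names of the labels are used here. Since each tissue was sequenced once, differences between tissues cannot be set against a spread between replicates, and no p-values were computed.

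Genes that lie next to each other on a plant chromosome are for the most part transcribed from promoters of their own. Neighbours can share a tissue pattern where they arose by tandem duplication, where a promoter between them is read in both directions, or where they lie in the same stretch of open or closed chromatin. The 2 loci of a pair can also be pieces of 1 gene that the assembly of transcripts did not join. The tables give neither gene names nor strands, so these kinds of pairs cannot be told apart here. A merged locus can also hold more than 1 gene, and 2 neighbours that a locus of any library bridged count as 1 locus.

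The unit is FPKM, the fragments per kilobase of transcript scaled to the mapped fragments of the library. The tables list 30999 loci for leaf, 29549 for rhizophore, 30393 for seedling and 28860 for stem, and they hold no counts of fragments. A merged locus with no listed locus in a library was set at 0 there, which says that none was assembled. Of the 6841 neighbouring loci, 5708 were listed in leaf, 5849 in rhizophore, 5868 in seedling and 5647 in stem. All 4 libraries listed 4847 of them, and 883 were listed in 1 library. More than 1 listed locus of the same library was summed in 2122 of them. Their median FPKM was 8.08 in leaf, 11.0 in rhizophore, 10.3 in seedling and 9.39 in stem.

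Most of these contigs carried a single pair. There were 2310 contigs with 2 loci (77.4%), 527 with 3, 113 with 4 and 36 with more, up to 8 on contig 101134. The stretch from the first to the last base of the neighbouring loci had a median of 4778.5 bp and reached 23826 bp, so only short-range neighbours can be seen on these contigs. The loci formed 3855 adjacent pairs, each a locus and the next along its contig. The gap between them had a median of 379 bp (95% interval 359 to 401 from the order statistics, n = 3855), with quartiles of 148 and 905.5 bp, and 77.6% of the gaps were shorter than 1000 bp. The longest gap was 7315 bp, and in 2 pairs the loci touched without overlapping. Gaps shorter than 50 bp were scarce, with 138 pairs, against 473 pairs from 50 to 99 bp. Cufflinks joins fragments that lie close together into 1 transcript, and the distance used is not given in the sources used here.

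**Figure D1:**
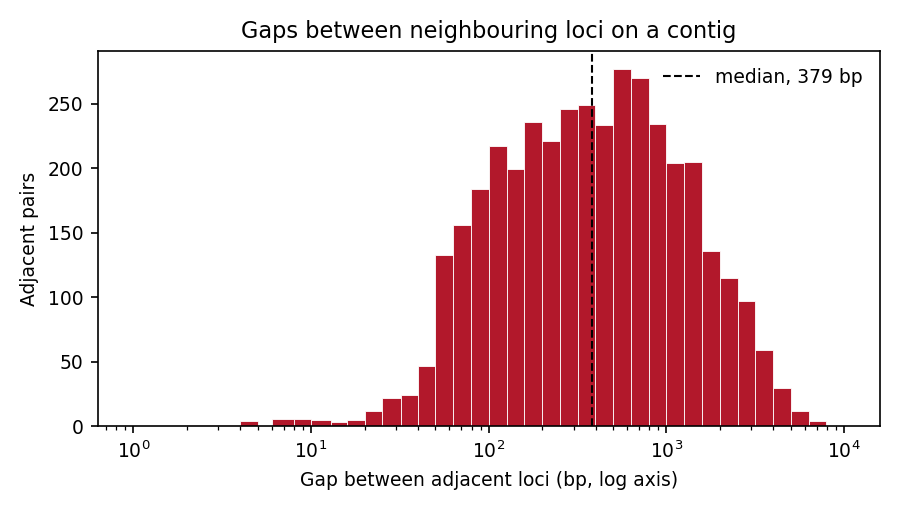
Number of adjacent pairs (vertical axis) by the gap between their loci in bp (horizontal log axis), over all pairs with a gap above 0. The counts climb steeply from 50 bp and most pairs lie below 1000 bp, with the median of 379 bp as a dashed line.

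Neighbouring loci were longer than loci of at least 300 bp that were alone on their contig. The selection can set part of this difference, which was not tested. A neighbouring locus needed a contig with room for another locus of at least 300 bp. A locus alone could lie on a shorter contig, which bounds its length. Contig lengths were not compared, so whether the loci themselves differ in length was not tested. The levels and listing compared at like lengths of loci share this limit. The median length was 1506 bp over the 6841 neighbouring loci, with quartiles of 841 and 2641 bp, against 860 bp over the 19214 loci alone, with quartiles of 493 and 1787.75 bp. The highest FPKM of a locus over the 4 libraries had a median of 19.7 in neighbouring loci and 14.8 in loci alone, with wide quartiles of 3.52 and 65.5 against 4.29 and 49.4. At like lengths the order depended on the length. From 300 bp to under 600 bp the median of the highest FPKM was 4.65 in 921 neighbouring loci and 10.9 in 6560 loci alone, and 36.8% of the neighbouring loci were listed in all 4 libraries, against 56.2% of the loci alone. From 600 bp to under 1200 bp it was 6.67 in neighbouring loci and 9.90 in loci alone. From 1200 bp to under 2400 bp the values were 20.5 and 18.5 in the same order, and from 2400 bp they were 42.9 and 38.4. Neighbouring loci were thus lower than loci alone below 1200 bp and higher from 1200 bp. They were listed in all 4 libraries less often in every length class, with 53.4% against 67.0% from 600 bp, 79.0% against 83.8% from 1200 bp and 94.1% against 96.5% from 2400 bp.

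The levels of adjacent loci bore little relation to each other. Within a pair, the locus with the higher maximum had a median of 52.7 FPKM and the other a median of 4.72 FPKM. Both loci reached 10 FPKM in some library in 1417 pairs, 1 locus did in 1851, and neither did in 587. Ordering 2 loci by level sets them apart in any pair, and these values were not computed on different contigs. They describe the pairs only. For the comparison of levels and patterns, both loci had to reach an FPKM of at least 1 in a library, which 6127 of the 6841 loci and 3051 of the 3855 pairs passed. The mean of log2(FPKM + 1) over the libraries differed within an adjacent pair by a median of 2.20, against 2.17 over all 18763079 pairs of the same loci on different contigs. Spearman's rho of this mean between adjacent loci was -0.025 (95% interval -0.060 to 0.011) over 3051 pairs, each entered in both orders. It lay between -0.079 (3000 bp or more) and 0.052 (1000 to under 3000 bp) in the 5 gap classes. No relation between the levels of neighbours was detectable. The longer locus of a pair was the higher one in 61.8% of the adjacent pairs of unequal length, and in 61.9% of such pairs on different contigs.

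Tissue patterns were shared by adjacent loci a little more often than by loci on different contigs. A pattern was the set of the 4 values of log2(FPKM + 1) of a locus, and 2 loci were compared by Pearson's r over these 4 values. An r over 4 values is imprecise, so only the distribution over pairs is described. The median r was 0.087 over adjacent pairs (95% interval 0.048 to 0.13, n = 3051) and 0.010 over all pairs on different contigs. An r of at least 0.8 was found in 451 adjacent pairs, or 14.8% (95% exact binomial interval 13.5 to 16.1), against 11.6% of the pairs on different contigs. At the other end, an r of -0.8 or below was found in 10.7% of adjacent pairs and 11.0% of pairs on different contigs. These intervals treat pairs as independent and cover counting error only, although pairs of 1 contig can share a locus and all pairs share the 4 libraries. The share on different contigs lay inside the interval among precisely measured loci. Over the 732 pairs whose loci were listed in all 4 libraries, with an interval half-width of at most 20% of the FPKM in each (a setting chosen after seeing the data), the share was 12.4% (95% exact binomial interval 10.1 to 15.04), against 11.7% on different contigs, and the median r was 0.0056 against 0.0050. The scale mattered as well: in TPM, which moved the libraries by 0.41 (leaf), -0.63 (rhizophore), -0.38 (seedling) and 0.60 (stem) on the log2 scale, the median r was 0.38 in adjacent pairs and 0.308 on different contigs, and the share with an r of at least 0.8 was 22.4% against 20.2%.

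**Figure D2:**
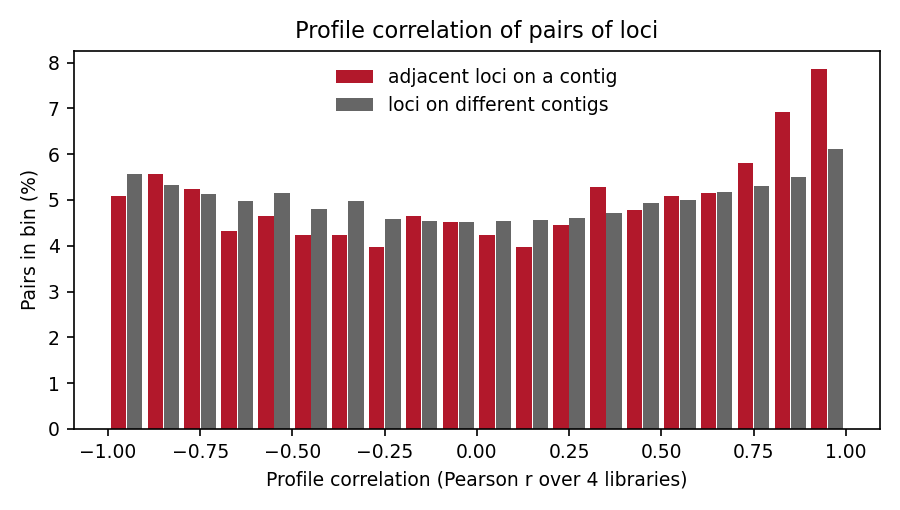
Share of pairs (vertical axis, %) in bins of 0.1 of the profile correlation r (horizontal axis), with red bars for the 3051 adjacent pairs and grey bars for all pairs of the same loci on different contigs. Both are nearly flat, and the red bars stand above the grey ones at an r of 0.8 or more (14.8% against 11.6% in all).

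A wider gap did not come with a steady loss of this likeness. The share with an r of at least 0.8 was 14.3% (71 of 496) for gaps under 100 bp, 15.7% (132 of 840) from 100 to under 300 bp, 14.5% (154 of 1061) from 300 to under 1000 bp and 15.4% (86 of 558) from 1000 to under 3000 bp. It was 8.33% (8 of 96, 95% exact binomial interval 3.67 to 15.8) from 3000 bp, and this interval includes the shares of the other 4 classes and that on different contigs. The median r was 0.058, 0.10, 0.078, 0.17 and -0.066 in the same order of classes, and the intervals of the first and the last class included 0. On the 149 contigs with 4 or more loci, pairs 1, 2 and 3 places apart could be compared. Their median r was 0.086 over 346 adjacent pairs, 0.023 over 244 pairs 2 places apart and -0.089 over 151 pairs 3 places apart, with 95% intervals of -0.058 to 0.26, -0.095 to 0.15 and -0.20 to 0.15. These intervals overlap, so an order of the 3 distances was not detectable with these contigs.

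**Figure D3:**
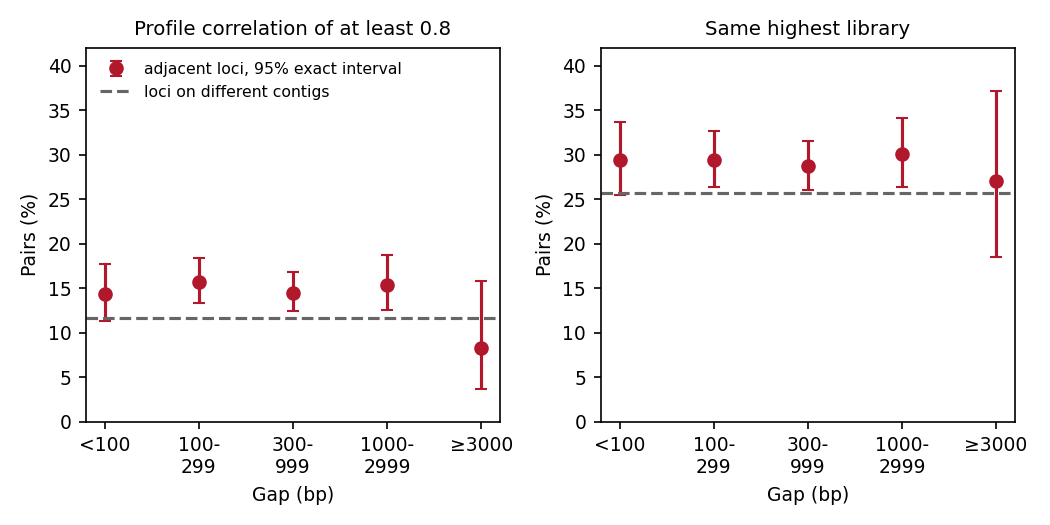
Share of adjacent pairs (vertical axes, %) with an r of at least 0.8 (left) and with the same highest library (right), by gap class in bp, with 95% exact binomial intervals, beside the share over pairs on different contigs (dashed, 11.6% and 25.7%). The first 4 classes lie between 14.3% and 15.7% on the left and between 28.7% and 30.1% on the right, and the last class, with 96 pairs, has the widest interval.

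The library in which a locus was highest gave the same picture. Of the 6127 loci past the filter, 1695 were highest in leaf, 1860 in rhizophore, 1292 in seedling and 1280 in stem. Both loci of an adjacent pair were highest in the same library in 892 pairs, or 29.2% (95% exact binomial interval 27.6 to 30.9), against 25.7% of the pairs on different contigs. Both were highest in rhizophore in 336 adjacent pairs (11.0%, 95% exact binomial interval 9.92 to 12.2), against 9.21% on different contigs, and this interval lies above the share on different contigs. Both were highest in leaf in 8.16% against 7.65%, in seedling in 5.18% against 4.44%, and in stem in 4.88% against 4.36%. In these 3 libraries the share was also above that on different contigs, which lay inside the interval for leaf and stem, and just above its lower bound of 4.42% for seedling. Leaf with rhizophore was the commonest mixed pair and was less common among adjacent loci, with 15.2% (95% exact binomial interval 13.9 to 16.5) against 16.8%. Rhizophore with seedling was less common to a like degree, with 11.6% (10.46 to 12.76) against 12.81%, as was seedling with stem, with 8.00% (7.06 to 9.02) against 8.81%, where the interval includes the share on different contigs. Of 495 contigs with 3 or more loci past the filter, 34 had all of these loci highest in 1 library, 257 in 2, 195 in 3 and 9 in all 4. No counterpart from loci on different contigs was computed, so these counts are not read as likeness within a contig. The ratio of the share in adjacent pairs to that on different contigs was 1.20 for rhizophore, 1.17 for seedling, 1.12 for stem and 1.07 for leaf. Among the 732 pairs of precisely measured loci the share with the same highest library was 26.2% (95% exact binomial interval 23.1 to 29.6) against 25.6%, and in TPM it was 37.5% over all 3051 pairs, against 34.5%. The shares for each library are given in FPKM only, and which library is highest can change with the scale.

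**Figure D4:**
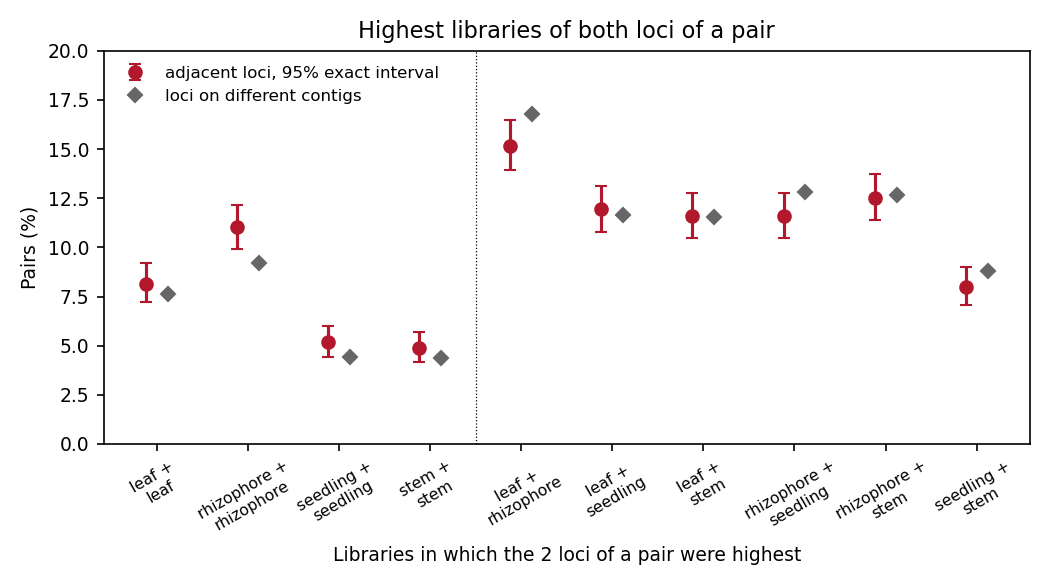
Share of pairs (vertical axis, %) by the libraries in which their loci were highest (horizontal axis), in red for adjacent pairs with 95% exact binomial intervals and in grey for pairs on different contigs, with pairs of the same library left of the dotted line. The largest gap on the left is at rhizophore with rhizophore, 11.0% against 9.21%, and on the right at leaf with rhizophore, 15.2% against 16.8%.

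Adjacent loci were missing from the same library together more often than loci on different contigs mainly in leaf. In leaf, 726 of the 6127 loci had no listed locus, and 17.0% of the neighbours of such a locus were missing from leaf too (128 of 751), against 11.8% of the loci on other contigs. The shares were 10.2% against 8.95% in rhizophore, 10.6% against 8.99% in seedling and 12.3% against 11.0% in stem. Leaf thus had the largest ratio of the 4, 1.44, with 1.12 to 1.18 in the others. Each pair enters these shares in both orders. Both loci were missing in 64 pairs in leaf, 28 in rhizophore, 30 in seedling and 42 in stem. No intervals were computed, so the small differences outside leaf were not set against counting error. Over all 3855 pairs, 1878 (48.7%) had both loci listed in all 4 libraries, against 50.2% of pairs on different contigs, and in 56 pairs (1.45%, against 2.90%) no library listed both loci. Among the pairs whose loci were listed in all 4 libraries, the share with an r of at least 0.8 was 13.3% against 11.7%, and that with the same highest library 26.6% (95% exact binomial interval 24.6 to 28.7) against 25.6%. The median r over these pairs was 0.040 (95% interval -0.016 to 0.098) against 0.0080. Both of these intervals include the value on different contigs, and that of the share with an r of at least 0.8 (11.74 to 14.9) lies just above the 11.67% on different contigs. The part of joint missing values in the excess of alike patterns was not tested further.

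Strong tissue preferences were seldom shared by neighbours, but more often than by loci on different contigs. A locus was called preferential for a library if its log2(FPKM + 1) was higher there by at least 2 than in each other library. By this rule 93 neighbouring loci were preferential for leaf (1.52%), against 1.83% of all loci of at least 300 bp past the filter. There were 140 for rhizophore (2.28%, against 2.11%), 61 for seedling (0.996%, against 0.966%) and 97 for stem (1.58%, against 1.56%), so neighbouring loci were preferential about as often as all loci. In pairs past the filter there were 356 of them, and 21 (5.90%, 95% exact binomial interval 3.69 to 8.88) had an adjacent locus with the same preference. Counted over neighbours, 22 of 398 (5.53%) had the preference of the locus beside them, against 1.71% of the loci on different contigs. In all, 11 pairs had the same preference, 5 had different ones, and in 366 only 1 locus was preferential. The 11 pairs comprised 5 for rhizophore and 2 each for leaf, seedling and stem. Their gaps ran from 60 to 621 bp with a median of 267 bp. Among 72 preferential loci with an adjacent locus at least 1000 bp away, 0 had one with the same preference, which allows a share of up to 4.17% by the limit of 3 counts (4.99% by the exact binomial interval). Both limits lie above the 1.71% on different contigs, so a share below that was not detectable at these gaps. Counting the 2 loci of each of the 11 pairs, 10 of 22 were listed in the preferred library alone and 7 of 22 in all 4 libraries, so part of these calls rests on loci that were not assembled elsewhere. Among loci listed in all 4 libraries, 3.25% of 123 preferential loci (95% exact binomial interval 0.893 to 8.12) had such a neighbour. This interval includes the share of 0.964% on different contigs. That share is per single locus, while the 3.25% counts a locus with any such neighbour, which can overstate the excess.

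The stem pair with the highest smaller preference, on contig 059646, was listed in all 4 libraries at both loci. Its loci at 1-403 and 472-1793 are 68 bp apart. The first had an FPKM of 264 in stem (95% interval 253 to 274), against 10.8 in leaf, 14.3 in rhizophore and 3.97 in seedling. The second had 1079 in stem (95% interval 1069.6 to 1089), against 75.4 in leaf, 96.8 in rhizophore and 186 in seedling. Both were highest in stem, with intervals apart from those of the other libraries, while the order of the other 3 libraries differed, with seedling lowest in the first and second highest in the second. These intervals are the bounds in the tables, taken as 95% intervals by the convention of Cufflinks, and cover error within a library only. The other stem pair, on contig 044124, was alike, with 53.1 FPKM in stem and 4.27 to 11.5 elsewhere at 1-836, and 603 in stem and 23.6 to 69.7 elsewhere at 1387-3957.

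The pairs preferential for the other libraries included weaker loci. On contig 088396, the locus at 78-674 had 49.3 FPKM in seedling (95% interval 46.0 to 52.6) and 5.24 in rhizophore, and the locus at 785-1275 had 3.92 in seedling (95% interval 2.93 to 4.90). Neither was listed in leaf or stem. On contig 099451, the locus at 2916-4067 had 20.6 FPKM in leaf (95% interval 19.0 to 22.1), 3.07 in seedling and 0.711 in stem, and the locus at 4689-5020 had 3.88 in leaf (95% interval 2.44 to 5.32) and was listed in no other library. On contig 030028, both loci, at 1341-3298 and 3566-5296, were listed in rhizophore alone. The first had 7.45 FPKM (95% interval 6.78 to 8.11), and the second had 38.1, with an interval from 0 to 3478 that leaves its level undetermined. On contigs 088396 and 099451 the locus at lower FPKM was listed in its preferred library only. The other leaf pair, on contig 094541, was alike: the locus at 302-1890 had 123 FPKM in leaf, 12.7 in rhizophore, 25.3 in seedling and 26.7 in stem, where the interval is wide (5.64 to 47.8), and the locus at 2328-3625 had 3.05 in leaf only. On contig 044583, both loci were again listed in rhizophore alone, with 24.5 FPKM at 116-627 and 96.7 at 836-1286, each a sum that included more than 1 listed locus. On contig 046292, the locus at 3826-4871 had 14.7 FPKM in rhizophore only, and the locus at 5252-6640 had 143 in rhizophore and 0.602 in leaf.

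Contig 085601 was the only one with 2 pairs of the same preference, 3 loci in a row that were preferential for rhizophore, and it was singled out after its values were seen. The locus at 4-2003 had 46.1 FPKM in rhizophore, against 2.38 in seedling and 1.30 in stem, and was not listed in leaf. The locus at 2161-5426 had 112 in rhizophore, against 7.12 in leaf, 10.7 in seedling, where the summed bounds run from 0 to 35.8, and 15.02 in stem. The locus at 6007-7431 had 446 in rhizophore (95% interval 426 to 466), against 0.738 in seedling, and was not listed in leaf or stem. All 3 were highest in rhizophore, and their levels there differed from each other by more than their intervals. The gaps between them are 157 and 580 bp.

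The contig with the most loci, 101134, showed how unlike neighbours can be. Its 8 loci were highest in rhizophore (the first and the second), seedling (the third, the fourth and the eighth), leaf (the fifth and the sixth) and stem (the seventh). At the eighth, the intervals of seedling (8.99 FPKM, 8.39 to 9.60) and rhizophore (8.02 FPKM, 7.42 to 8.62) overlap, so its highest library is not settled. The locus at 13023-14827 had the highest level, with 549.9 FPKM in leaf, 144 in rhizophore, 449.9 in seedling and 243 in stem. The locus before it, at 11777-12806 and 216 bp away, had 4.99 in leaf, 1.66 in rhizophore and 2.79 in stem and was not listed in seedling. The locus after it, at 14936-16382 and 108 bp away, had 70.8 in leaf, 89.1 in rhizophore, 76.8 in seedling and 132 in stem. The second locus was listed in rhizophore alone, with 3.86 FPKM, and the fourth in seedling alone, with 1.00 FPKM. The r of the 7 adjacent pairs along this contig was 0.89, -0.28, 0.73, -0.90, 0.012, -0.56 and -0.45. The values 0.89, -0.28, 0.73 and -0.90 involve these 2 weak loci, and each single r is imprecise.

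**Figure D5:**
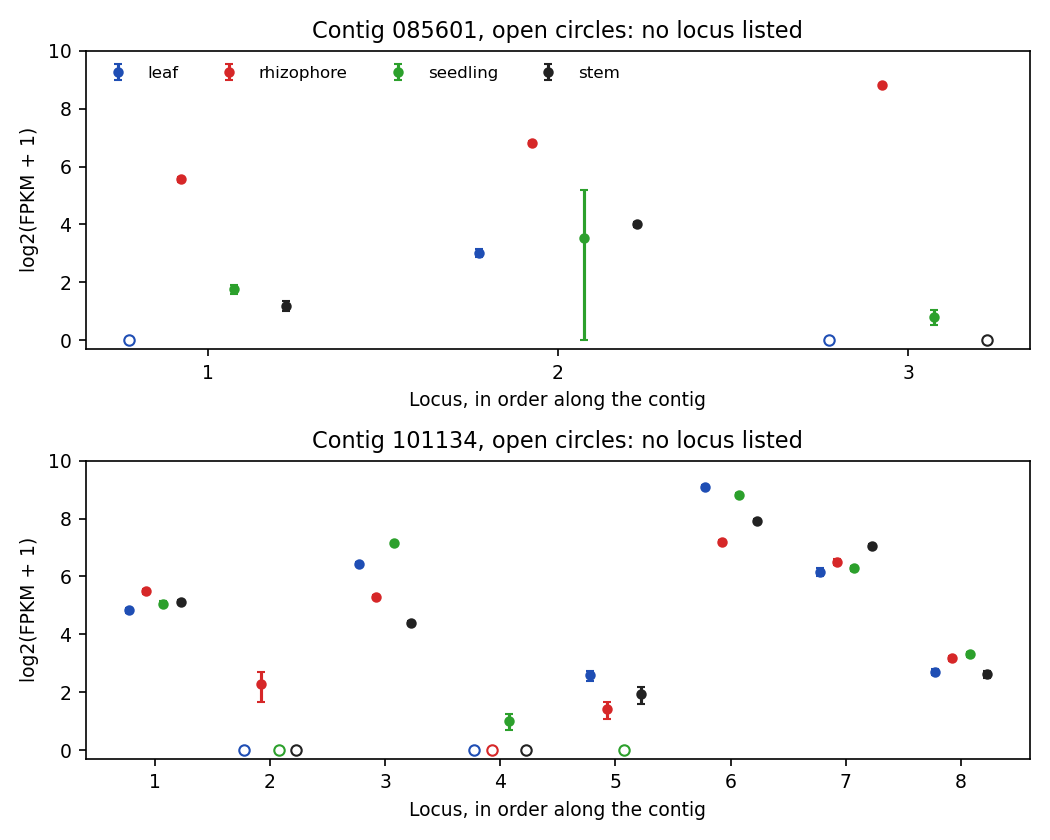
Level of each locus as log2(FPKM + 1) (vertical axes) in order along contig 085601 (top) and contig 101134 (bottom), with 1 point per library, bars for the bounds in the tables (summed where a library listed more than 1 locus) and open circles at 0 where no locus was listed. On contig 085601 the rhizophore point is the highest at all 3 loci, and on contig 101134 the highest library changes along the 8 loci.

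Neighbours at a short distance could be as unlike as those far apart. The lowest r among pairs whose loci both spanned at least 2 on the log2 scale was -0.996, on contig 052787, where the gap is 98 bp. The locus at 3455-4178 had 72.0 FPKM in rhizophore, against 287 in leaf, 335 in seedling and 132 in stem. The locus at 4277-5301 had 212 in rhizophore (95% interval 202 to 222) and 20.6 in stem, and was not listed in leaf or seedling. The first was thus lowest, and the second highest, in rhizophore. The highest r was 1.00, shared by the pair on contig 030028 above and by loci on contig 098112 at 141-1718 and 1779-2828 that are 60 bp apart and were listed in seedling alone, with 3.76 FPKM (95% interval 3.32 to 4.20) and 5.47 FPKM (95% interval 4.80 to 6.15). An r of 1.00 follows of itself where 2 loci are each listed in the same single library.

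The remaining pairs named by rule had mixed patterns. On contig 095632, with a gap of 2046 bp, the locus at 2592-3346 was preferential for rhizophore, with 102 FPKM against 13.9 in seedling and 7.40 in stem, and the locus at 5393-5697 was listed in stem alone, with 12.5. The shortest gap among pairs with at most 1 listed locus per library was 3 bp, on contig 095848. There the locus at 13-2306 had 3.73 FPKM in leaf, 1.12 in rhizophore, 8.46 in seedling and 13.3 in stem, and the locus at 2310-2842 was listed in stem alone, with 2.40. Among the same pairs the longest gap was 6033 bp, on contig 043133, between a locus at 86-1720 with 1.29 FPKM in leaf and 2.23 in seedling and a locus at 7754-11034 with 7.86 to 12.9 FPKM in the 4 libraries. The pair with the highest level of its lower locus was on contig 099941, with a gap of 135 bp. The locus at 213-523 had 2649 FPKM in stem (95% interval 1984 to 3314), 356 in leaf, 15.7 in rhizophore and 10.3 in seedling. The locus at 659-1042 had 360.5 in stem (95% interval 128 to 593), 236 in seedling (95% interval 83.7 to 389) and 1.499 in rhizophore, and was not listed in leaf. Both were highest in stem, but the stem and seedling intervals of the second locus overlap, and leaf was second highest in the first locus and missing from the second.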

How the data were processed

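1 RNA-seq library was made from each of 4 tissues of S. kraussiana. After trimming, the authors mapped reads with TopHat to their ABySS contigs and assembled transcripts per library with Cufflinks. The deposited values are FPKM per locus, with a lower and an upper bound. The tables give no counts, gene names or strands, and depth is unknown from them. Positions are on the authors' contigs, counted from 1.

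Loci were merged by an overlap of at least 1 bp, FPKM was summed per library and set to 0 where none was listed, and merged loci of at least 300 bp were kept. Patterns used log2(FPKM + 1) of loci that reached 1 FPKM in some library, which understates changes of low loci. Pairs on different contigs were all pairs of neighbouring loci past the filter, enumerated in full. No test was made. Intervals are 95% exact binomial ones for shares and order-statistic ones for medians. The 95% interval of Spearman's rho used Fisher's z transformation, with pairs taken as independent. Named pairs, among pairs past the filter with at most 1 listed locus per library, were those with the highest smaller preference (for each library, and for unlike preferences), the shortest and longest gap, the highest level of the lower locus and the lowest and highest r among loci spanning at least 2. To these came the contig with the most loci. The members, measures and rules were chosen with earlier results of these data known. The alternatives were the pseudocount, filter, scaling, minimum length, merging distance, gap, listing, contig size, correlation and size of preference. The scripts were tested on simulated data. Python 3.11.15, numpy 2.4.6, pandas 2.3.3, scipy 1.17.1 and matplotlib 3.10.9 were used.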

Additional observations from a re-analysis of the deposited data

How the results depend on the processing

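The median r was higher in adjacent pairs than on different contigs under all 15 alternatives run. So were the share with an r of at least 0.8 (15) and the share with the same highest library (14). The share of preferential loci with a like neighbour was higher under 13 of 14. The alternatives reuse many of the same pairs, so they are not independent. The interval of the median r included the value on different contigs at an FPKM of at least 10 (-0.024 to 0.11, against 0.010). It also did so for loci listed in all 4 libraries, half-widths of at most 20% and a span of at least 2 (-0.020 to 0.28, against 0.028). The size of the excess depended on the setting. In the order median r, share with an r of at least 0.8 and share with the same highest library, adjacent pairs gave 0.38, 22.4% and 37.5% in TPM, against 0.308, 20.2% and 34.5% on different contigs. They gave 0.040, 13.3% and 26.6% over loci listed in all 4 libraries, against 0.0080, 11.7% and 25.6%. With 2 settings chosen after seeing the data they gave 0.0056, 12.4% and 26.2% over loci with half-widths of at most 20%, against 0.0050, 11.7% and 25.6%, and 0.16, 19.4% and 31.9% over loci that span at least 2 on the log2 scale, against 0.028, 13.0% and 25.4%. The median r was also 0.044 at an FPKM of at least 10 (0.010 on different contigs) and 0.13 at gaps of at least 1000 bp (0.010). With at most 1 listed locus per library it was 0.15 (0.018), and the share with the same highest library was 31.2% (25.8%). With Spearman's correlation 18.0% of pairs reached 0.8, against 15.4%. The share of preferential loci with a like neighbour was 10.1% of 710 with a pseudocount of 0.1 (3.37% on different contigs), 12.1% of 1353 at a preference of at least 1 (6.36%), 3.25% of 123 listed in all 4 libraries (0.964%), and 0% of 72 at gaps of at least 1000 bp (1.71%). Here, as in the 13 of 14, a locus counted if any of its neighbours was alike. The value on different contigs is per single locus, which can overstate the excess. The correlation of levels was 0.032 at gaps of at least 1000 bp. The median gap was 419 bp at a minimum length of 600 bp and 511 bp with loci up to 100 bp apart merged, and the median of the highest FPKM of neighbouring loci was 23.2 at 600 bp, against 17.6 in loci alone. The cause of these differences was not tested. The stricter filters also leave fewer loci. No paired analysis was possible because no tissue was sequenced more than once, which also left no replicate to drop.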

Other observations

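Loci shorter than 300 bp were left out of the pairs. In 13 of the 3855 gaps (0.337%) such a locus lay between the neighbours, 14 loci in all, with a median length of 210 bp and a median of the highest FPKM of 84.0. All 4 libraries listed 4 of them, and 5 were listed in 1 library. Just inside the minimum length, the 147 neighbouring loci of 300 to under 350 bp had a median of the highest FPKM of 7.26, and just outside it the 31 loci of 250 to under 300 bp on the same contigs had a median of 6.87.

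The value of a library relative to the mean of the 4 libraries, on the log2(FPKM + 1) scale, was weakly related between adjacent loci. Spearman's rho over 3051 pairs, each entered in both orders, was 0.048 in leaf, 0.039 in rhizophore, 0.070 in seedling and 0.074 in stem. The points share 4 libraries and, in part, a contig, and no p-value is given.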
